A study of Oryza sativa with 23 samples.

Results

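The genes followed here are 9 rice transcription factor genes of the NAC family, 8 of them known for responses to stress and the ninth, OsNAM12.1, lying in the drought-yield locus qDTY12.1. They are SNAC1 (LOC_Os03g60080), OsNAC6 (LOC_Os01g66120), OsNAC5 (LOC_Os11g08210), OsNAC10 (LOC_Os11g03300), OsNAC3 (LOC_Os07g12340), OsNAC4 (LOC_Os01g60020), SNAC3 (LOC_Os01g09550), ONAC131 (LOC_Os12g03040) and OsNAM12.1 (LOC_Os12g29330). A gene was taken as the array probe whose annotated transcript carried its locus, and each of the 9 had 1 probe among the 52901 probes of the array. Locus names give the chromosome, so that SNAC1 lies on chromosome 3, OsNAC6, OsNAC4 and SNAC3 on chromosome 1, OsNAC3 on chromosome 7, OsNAC5 and OsNAC10 on chromosome 11, and ONAC131 and OsNAM12.1 on chromosome 12.

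NAC proteins are plant transcription factors that bind DNA through a conserved domain near their amino terminus, while the rest of the protein is variable and often activates transcription. In rice, the stress group of the family is induced by water deficit, salt and abscisic acid, the hormone that closes stomata, and several of its members raised drought tolerance when overexpressed in transgenic plants. In roots such factors have been linked to thicker roots and to the switching on of protective proteins.

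Each sample of root RNA, labelled with Cy3, was measured on its own array of a custom Agilent rice design. Roots were taken at 25 days after sowing from 4 cultivars, each under drought (a drydown that started at 75% of field capacity) and well watered. OsNAM Event 2, called IR64-Tr-E2 in the methods, is a line of the cultivar IR64 that comes from 1 transgenic event and overexpresses the OsNAM12.1 coding sequence of the donor Way Rarem, and IR64 is its untransformed background. The promoter that drives the transgene is not given in the sources used here. The line 481-B is a near isogenic line of the cultivar Vandana that carries qDTY12.1 of Way Rarem, and Vandana is its recurrent parent. Well-watered soil was kept at 1.2 times field capacity for OsNAM Event 2 and IR64 and at 1 times field capacity for 481-B and Vandana. Background and soil water therefore cannot be told apart when well watered, nor in the drought response, which is taken from the well-watered arrays. Each group had 3 arrays, except OsNAM Event 2 well watered, which had 2 (replicates 1 and 3). The methods do not state whether the RNA of several plants was pooled for an array, so that p-values measure the spread between these arrays.

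Between 31.6% and 64.2% of the spots of an array were well above background, and precision is limited by there being 2 or 3 arrays in a group. The array labelled Vandana well watered replicate 2 lay nearer to the IR64 pair in 500 of 514 probes that separated the backgrounds, and it was kept under its label. Of the loci listed as root markers, Lsi1 and Lsi2, silicon transporters of the root, were well above background on 23 and 22 of 23 arrays, and LOC_Os02g44310 on 23 of 23. The 5 loci listed as green tissue markers (small subunit of Rubisco and chlorophyll-binding proteins) were also well above background on 19 to 23 of 23 arrays. Their summed signal ran between 6.70 and 15.68 (log2, median 9.24) on the drought arrays, against 8.13 and 14.05 (log2, median 9.999) on the well-watered arrays, and its part in the results below was not tested.

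OsNAM12.1 fell under drought. In OsNAM Event 2 roots its log2 signal was 6.21, 7.06 and 7.22 under drought, against 7.98 and 7.56 when well watered. IR64 roots had 6.999, 6.58 and 4.88 under drought, against 7.35, 7.36 and 7.45 when well watered. In both of these cultivars every drought array lay below every well-watered array, as was so in either direction for 47.7% of all probes in OsNAM Event 2 and 18.8% in IR64. The IR64 drought replicate 3 was the lowest of the 23 arrays. For 481-B the log2 signals were 7.51, 6.94 and 6.51 under drought, against 7.51, 7.19 and 7.79 when well watered. Vandana roots had 5.82, 7.36 and 7.75 under drought, against 7.48, 7.26 and 8.02 when well watered. In 481-B and Vandana the arrays of the treatments overlapped. The mean was lower under drought in 4 of 4 cultivars, as for 23.6% of all probes.

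Averaged over the 4 cultivars, the change of OsNAM12.1 was -0.82 (log2, standard error 0.26, 95% interval -1.38 to -0.27, adjusted p = 0.0273, limma), a 1.77-fold fall. Within single cultivars it was -0.95 in OsNAM Event 2, -1.23 in IR64, -0.51 in 481-B and -0.61 in Vandana, and none of these was called after adjustment over all probes. The averaged call was lost without 481-B drought replicate 3 (adjusted p = 0.0504), without OsNAM Event 2 drought replicate 1 (adjusted p = 0.0534) and without OsNAM Event 2 well watered replicate 1 (adjusted p = 0.0727, limma), with changes between -0.77 and -0.75. Over 6 other processing settings, among them the authors' table of the same normalized signals, the change lay between -0.83 and -0.49. It was smallest with normexp background correction, and the adjusted p lay between 0.0151 and 0.0429 (limma).

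No difference between the transgenic line and IR64 passed the test on this probe. OsNAM12.1 was 0.67 higher in OsNAM Event 2 than in IR64 under drought (95% interval -0.40 to 1.75, adjusted p = 1, limma) and 0.39 higher when well watered (95% interval -0.81 to 1.59, adjusted p = 0.971, limma). These intervals include changes above 2-fold. The sequence of the probe is not in the tables used here, so that it is not known whether it detects the transgene, which holds the coding sequence of another cultivar. The 481-B arrays differed from the Vandana arrays by 0.01 under drought (95% interval -1.07 to 1.08) and by -0.09 when well watered (95% interval -1.17 to 0.98), neither of which was called.

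**Figure D1:**
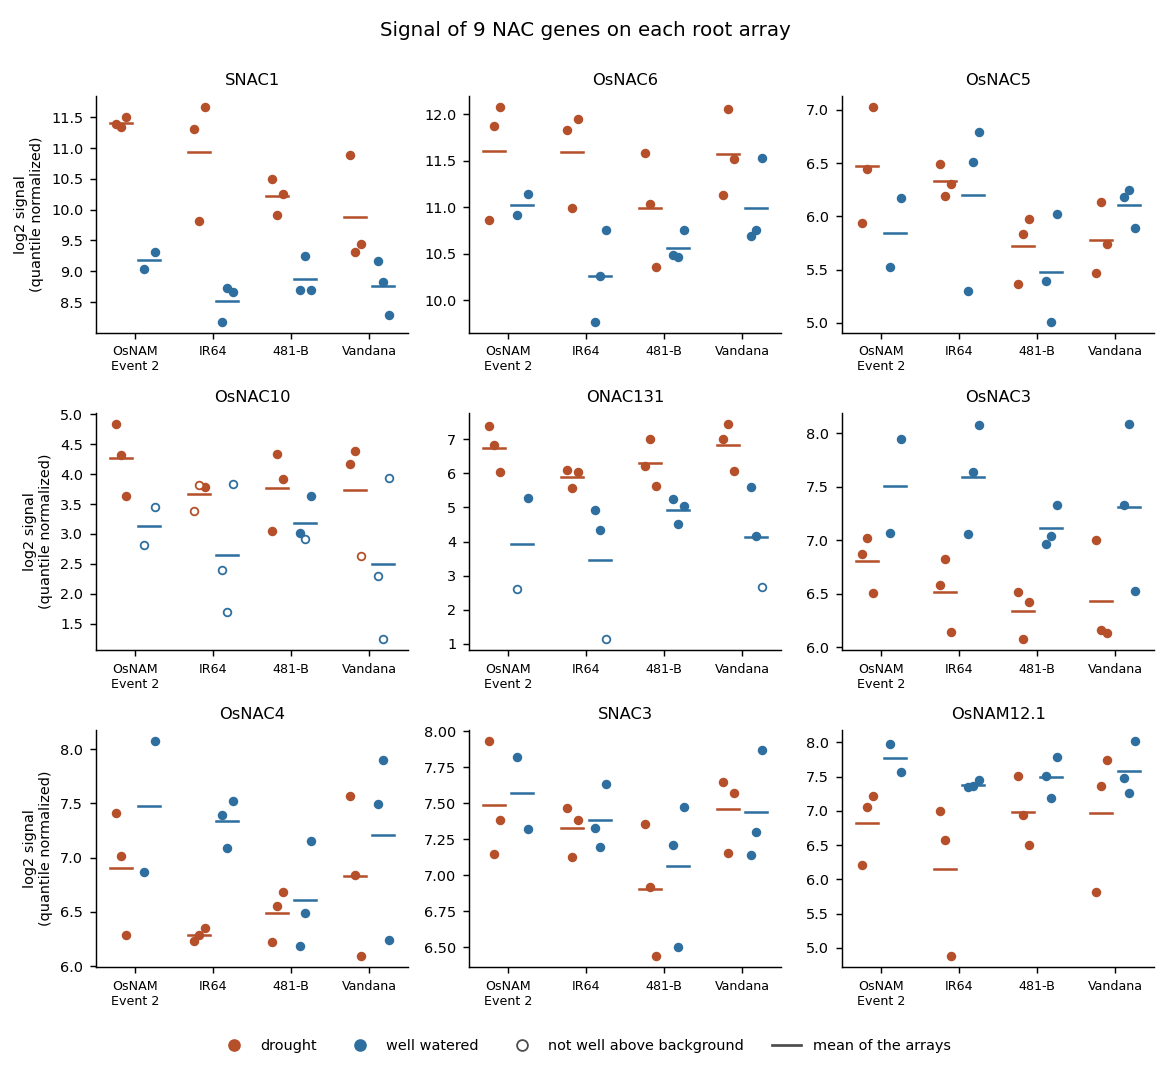
Log2 quantile-normalized signal (vertical axes, each with its own range) of the 9 NAC genes on each of 23 root arrays, with drought left of well watered in each of 4 cultivars. Points are arrays, open points were not well above background, and lines are means of 3 arrays (2 for OsNAM Event 2 well watered). For SNAC1 all 12 drought arrays lie above all 11 well-watered arrays.

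SNAC1 rose under drought, with the smallest p of the 9 genes. It encodes a stress-responsive NAC factor known in rice from guard cells, where it promotes stomatal closure, and its overexpression improved drought resistance. OsNAM Event 2 roots had log2 signals of 11.40, 11.34 and 11.51 under drought, against 9.03 and 9.32 when well watered. IR64 roots had 11.31, 9.82 and 11.67 under drought, against 8.18, 8.72 and 8.66 when well watered. The lowest of these drought arrays, IR64 replicate 2, was still above every well-watered array of the series. For 481-B the log2 signals of SNAC1 were 10.50, 9.91 and 10.25 under drought, against 8.70, 9.24 and 8.69 when well watered. Vandana roots had 10.88, 9.32 and 9.44 under drought, against 9.16, 8.83 and 8.28 when well watered. The lowest drought array, at 9.319, and the highest well-watered array, at 9.318, came from Vandana and from OsNAM Event 2 and lay next to each other, so that the treatments were apart over the whole series by a small margin.

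The averaged change of SNAC1 was 1.78 (log2, standard error 0.22, 95% interval 1.31 to 2.25, adjusted p = 2.44e-05, limma), which is 3.43-fold. It was 2.24 in OsNAM Event 2 (adjusted p = 0.0114) and 2.41 in IR64 (adjusted p = 0.00364, limma). In 481-B it was 1.34 (adjusted p = 0.256) and in Vandana 1.12 (adjusted p = 0.18, limma), neither of which was called. Arrays of the treatments did not overlap in any of the 4 cultivars. In single cultivars 17.7% (481-B) and 18.7% (Vandana) of all probes had no overlap, and 4.14% had none in all 4 cultivars with 1 direction throughout.

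OsNAC6, also named SNAC2, rose less. It is induced in rice by cold, salt, drought and wounding, and overexpressing plants tolerate several stresses. In IR64 roots its log2 signal was 11.83, 10.996 and 11.95 under drought, against 9.76, 10.26 and 10.75 when well watered. These did not overlap, as was so for 18.8% of all probes in IR64. OsNAM Event 2 had 10.86, 11.88 and 12.08 under drought, against 10.91 and 11.14 when well watered. In this line drought replicate 1 lay with the well-watered arrays. In 481-B the values were 11.58, 11.04 and 10.35 under drought, against 10.48, 10.46 and 10.75 when well watered. Vandana had 11.13, 12.06 and 11.52 under drought, against 10.69, 10.75 and 11.53 when well watered. The treatments overlapped in both. Its mean was higher under drought in 4 of 4 cultivars, as for 20.6% of all probes. The averaged change was 0.73 (log2, standard error 0.20, 95% interval 0.30 to 1.16, adjusted p = 0.0129, limma), or 1.66-fold. In IR64 it was 1.33 (adjusted p = 0.0611, limma), and in the other cultivars it ran between 0.42 and 0.58.

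OsNAC10 on chromosome 11 and ONAC131 on chromosome 12 are copies in a duplicated stretch shared by the ends of those chromosomes. Whether their probes cross-hybridise is not known from the tables used here, although the methods mention a pilot meant to leave such oligonucleotides out, so that their signals are uncertain as measures of the separate genes. OsNAC10 is known for raising yield under drought when expressed in rice roots, and both genes have been linked in rice to defence against blast fungus.

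ONAC131 was well above background on all 12 drought arrays and on 8 of 11 well-watered arrays. In OsNAM Event 2 roots its log2 signal was 7.39, 6.83 and 6.02 under drought, against 2.60 and 5.26 when well watered. IR64 roots had 6.09, 5.58 and 6.03 under drought, against 4.92, 4.35 and 1.14 when well watered. The values of 2.60 and 1.14 were not well above background. For 481-B the signals were 6.23, 7.02 and 5.63 under drought, against 5.25, 4.50 and 5.05 when well watered. Vandana had 7.005, 7.45 and 6.07 under drought, against 5.60, 4.17 and 2.66 when well watered, of which 2.66 was not well above background. The treatments did not overlap within any cultivar, as was so with 1 direction throughout for 4.14% of all probes. The averaged change was 2.33 (log2, standard error 0.45, 95% interval 1.37 to 3.28, adjusted p = 0.00117, limma), and since 3 of the 11 well-watered values only bound the level, no exact fold is given. By cultivar it was 2.82 in OsNAM Event 2, 2.43 in IR64, 1.36 in 481-B and 2.70 in Vandana, with adjusted p between 0.0829 and 0.903 (limma). With normexp background correction and an offset of 50, which draws dim values together, the averaged change was 0.92 and remained called.

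OsNAC10 was near the limit of detection, with 9 of 12 drought arrays and 2 of 11 well-watered arrays well above background. OsNAM Event 2 had log2 signals of 4.84, 4.33 and 3.64 under drought, against 2.81 and 3.45 when well watered, where neither array was well above background. The change in this line was 1.14 (log2, 95% interval -0.37 to 2.64, adjusted p = 0.331, limma) and was not called. Its well-watered values only bound the level, so that no fold is given. IR64 had 3.38, 3.81 and 3.79 under drought, against 2.40, 1.70 and 3.83 when well watered, with 1 of these 6 arrays well above background. In 481-B the signals were 3.04, 4.34 and 3.91 under drought, against 3.02, 2.91 and 3.63 when well watered. Vandana had 4.17, 4.38 and 2.63 under drought, against 2.30, 1.24 and 3.93 when well watered. Treatments overlapped in all cultivars but OsNAM Event 2, where 47.7% of all probes had no overlap. The averaged change was 0.99 (log2, standard error 0.33, 95% interval 0.30 to 1.69, adjusted p = 0.0332, limma), and this fold rests on values that in most well-watered arrays only bound the level. The call was lost when any 1 of 11 arrays was left out (adjusted p between 0.0520 and 0.0891), among them the array labelled Vandana well watered replicate 2 (change 0.84, adjusted p = 0.0547, limma). It was also lost after aligning arrays on their 75th percentile (change 0.61, adjusted p = 0.160, limma), and with normexp the change was 0.17 and called. Over 6 settings the adjusted p lay between 0.0103 and 0.160 (limma).

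OsNAC3 fell under drought by an amount near that of OsNAM12.1. In OsNAM Event 2 roots its log2 signal was 6.87, 7.02 and 6.51 under drought, against 7.07 and 7.95 when well watered. IR64 had 6.58, 6.82 and 6.15 under drought, against 7.06, 7.63 and 8.08 when well watered. For 481-B the signals were 6.51, 6.08 and 6.42 under drought, against 6.97, 7.04 and 7.33 when well watered. In these 3 cultivars the treatments did not overlap, as was so for 47.7% (OsNAM Event 2), 18.8% (IR64) and 17.7% (481-B) of all probes. Vandana had 7.005, 6.16 and 6.13 under drought, against 7.33, 8.09 and 6.52 when well watered, and here drought replicate 1 exceeded 1 well-watered array. The averaged change was -0.86 (log2, standard error 0.19, 95% interval -1.26 to -0.45, adjusted p = 0.00316, limma), or a 1.81-fold fall. By cultivar it ran between -1.07 in IR64 and -0.70 in OsNAM Event 2. With normexp the averaged change was -0.56 and remained called.

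How the falls of OsNAC3 and OsNAM12.1 compare with other probes depended on the scaling. When arrays were aligned on their 75th percentile instead of quantile normalized, the median change of all probes was itself -0.62, against -0.06 in the quantile-normalized values. The changes of the genes were then -0.79 for OsNAC3 and -0.78 for OsNAM12.1, both called, but relative to that median they were -0.17 and -0.16. Relative to the same median SNAC1 was at 2.50, ONAC131 at 2.58, OsNAC6 at 1.4 and OsNAC10 at 1.23.

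OsNAC4, OsNAC5 and SNAC3 were not called. OsNAC4, a factor linked in rice to hypersensitive cell death during immunity, ran between 6.09 and 7.56 on the drought arrays (median 6.46), against 6.19 and 8.08 on the well-watered arrays (median 7.15). Its averaged change was -0.53 (log2, 95% interval -1.01 to -0.05, adjusted p = 0.0982, limma), and its mean was lower under drought in 4 of 4 cultivars, as for 23.6% of all probes. IR64 was the cultivar in which its arrays did not overlap (18.8% of all probes there), at 6.23, 6.29 and 6.36 under drought, against 7.40, 7.09 and 7.53 when well watered. Without Vandana well watered replicate 3 the averaged change was -0.65 and was called (adjusted p = 0.0279, limma), with adjusted p between 0.0279 and 0.267 over all arrays left out in turn.

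OsNAC5, which responds to abscisic acid and stress in rice and enlarged roots when overexpressed there, ran between 5.36 and 7.03 on the drought arrays (median 6.06), against 5.01 and 6.79 on the well-watered arrays (median 6.02). The averaged change was 0.17 (log2, 95% interval -0.23 to 0.57, adjusted p = 0.568, limma). By cultivar the values were 0.62 in OsNAM Event 2, 0.13 in IR64, 0.25 in 481-B and -0.33 in Vandana. SNAC3, a factor linked in rice to heat and drought tolerance, ran between 6.44 and 7.93 on the drought arrays (median 7.37), against 6.50 and 7.87 on the well-watered arrays (median 7.32). Its averaged change was -0.07 (log2, 95% interval -0.40 to 0.26, adjusted p = 0.796, limma), and it was 0.03 after the shift to the 75th percentile. For both genes the intervals bound the averaged change to under 2-fold in either direction.

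In all, 6 of the 9 genes were called in the averaged comparison, 4 higher and 2 lower under drought, against 26.5% of all probes called (14.2% higher and 12.3% lower). The 9 genes were chosen with earlier results of these data known, so that this count is a description. After the shift to the 75th percentile 33% of the calls over all probes were higher, against 53.6% in the quantile-normalized values. Under the rule that the methods state (over 2-fold and a Bonferroni-adjusted p below 0.05), SNAC1 was called and the other 8 were not, against 1.95% of all probes. By that rule 0 of the 9 were called in OsNAM Event 2 (0.289% of all probes) or in IR64 (0.301% of all probes), although limma gave 2 and 6 of them an unadjusted p below 0.05. The median change of the 9 genes was 0.17, against -0.06 over all probes. When replicate 2 labelled Vandana well watered was left out, 5 of the 9 were called.

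Fewer genes were called within single cultivars, where 2 or 3 arrays stand on each side. SNAC1 was the gene called in OsNAM Event 2 (8.15% of all probes called) and in IR64 (4.99% of all probes called). None of the 9 was called in 481-B (0.582% of all probes) or in Vandana (1.7% of all probes), where limma gave an unadjusted p below 0.05 to 1 gene (SNAC1) and to 3 genes (SNAC1, OsNAC3 and ONAC131). In Vandana, 0 were called with or without the array labelled well watered replicate 2, and without it the change of OsNAC10 was 0.61 in place of 1.24, that of OsNAC3 -0.49 in place of -0.88 and that of OsNAC4 -0.04 in place of -0.38. Arrays shared slides, and within slides 9 pairs of a drought and a well-watered array with the same cultivar label could be formed. SNAC1 and ONAC131 were higher under drought in 9 of 9 such pairs, OsNAC10 in 8, OsNAC6 in 7, SNAC3 in 5 and OsNAC5 and OsNAC4 in 4 each. OsNAC3 was lower in 9 of 9 pairs and OsNAM12.1 in 7. The Vandana pair on slide 2 used the array labelled well watered replicate 2, which lay nearer to the IR64 pair. In that pair OsNAC3 changed by -1.96, OsNAC4 by -1.81 and OsNAM12.1 by 0.49. The share of all probes with such counts was not computed, so that the counts are a description.

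**Figure D2:**
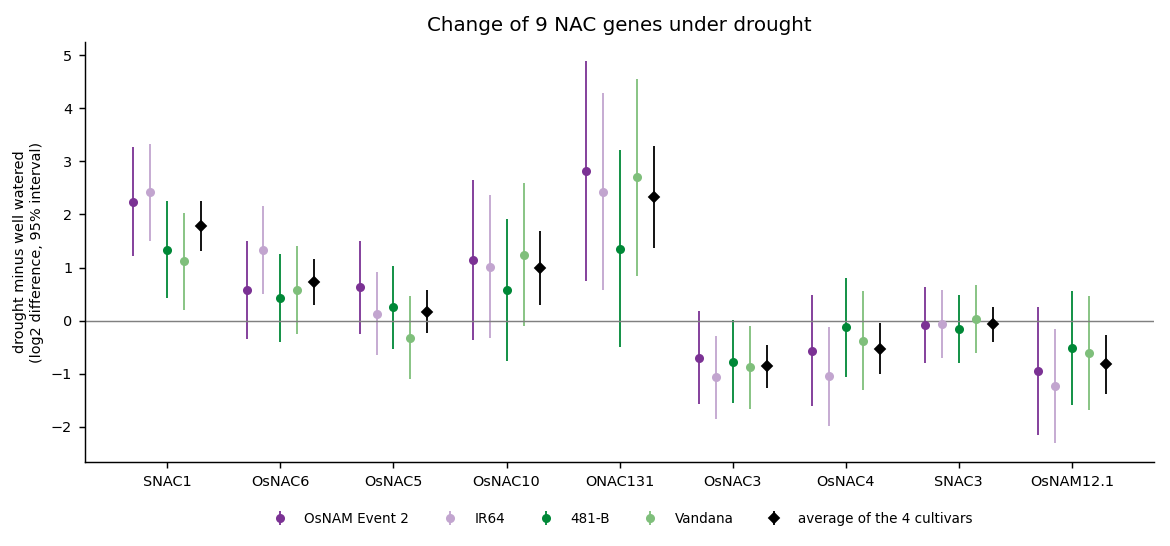
Drought minus well watered on the log2 scale (vertical axis) for the 9 NAC genes, with points for OsNAM Event 2, IR64, 481-B and Vandana and a diamond for the average of the 4 cultivars, each with its 95% interval from the limma fit of 23 arrays. The averaged intervals of SNAC1 (1.31 to 2.25) and ONAC131 (1.37 to 3.28) lie above 0, and those of OsNAC3 (-1.26 to -0.45) and OsNAM12.1 (-1.38 to -0.27) below it.

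None of the 9 genes was called in any of 9 comparisons between lines. These set OsNAM Event 2 against IR64, 481-B against Vandana, and the IR64 pair against the Vandana pair, each under drought, when well watered and in the drought response. Of the 81 values, 3 had an unadjusted p below 0.05 (limma). SNAC1 under drought was 1.13 higher in the IR64 pair than in the Vandana pair (log2, 95% interval 0.48 to 1.77, adjusted p = 0.0525, limma), where 3.5% of all probes were called. This comparison passed the threshold without IR64 drought replicate 2, without Vandana drought replicate 1 and without Vandana well watered replicate 3. The drought response of SNAC1 was 1.098 larger in the IR64 pair (95% interval 0.16 to 2.04, adjusted p = 0.822, limma), and 1.08 larger when replicate 2 labelled Vandana well watered was left out. The response is taken from well-watered soils that differed between the pairs, so that background and soil water cannot be told apart in it. When well watered the pairs differed by 0.03 in SNAC1 (95% interval -0.66 to 0.71). Of all probes 1.54% were called between the pairs when well watered and 0.0246% in the drought response. The third value was that of OsNAC5 under drought, 0.65 higher in the IR64 pair (95% interval 0.10 to 1.20, adjusted p = 0.272, limma).

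Between OsNAM Event 2 and IR64, 0 probes of the array were called under drought or in the drought response, and 0.0113% when well watered. In SNAC1 the drought response of OsNAM Event 2 was -0.17 relative to that of IR64 (95% interval -1.55 to 1.20). For OsNAC6 it was -0.75 (95% interval -1.998 to 0.49), for ONAC131 0.38 (95% interval -2.40 to 3.17) and for OsNAM12.1 0.28 (95% interval -1.33 to 1.90). Between 481-B and Vandana the response of SNAC1 differed by 0.22 (95% interval -1.07 to 1.51) and that of ONAC131 by -1.34 (95% interval -3.97 to 1.28). Of all probes 0.00567% were called between these lines under drought, and 0.00189% both when well watered and in the drought response. With or without that IR64-like array, 0 of the 9 genes were called in the comparisons that use it. All these intervals include changes of 2-fold in the response.

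Set against OsNAM12.1 within each array, 5 of the other 8 genes were called as changing differently under drought. For this comparison the log2 value of the OsNAM12.1 probe was subtracted from every other probe of the same array before the fit. All values therefore share the spread of OsNAM12.1, and an error in that probe moves them together. The fit treats the probes as separate, so that its p-values here may be too small. Of all probes 41.8% were called in this way, 40.8% higher and 1% lower. ONAC131 rose by 3.15 relative to OsNAM12.1 (log2, 95% interval 2.08 to 4.22, adjusted p = 0.000103, limma) and SNAC1 by 2.60 (95% interval 1.75 to 3.46, adjusted p = 6.95e-05, limma). Relative values of 1.82 for OsNAC10 (adjusted p = 0.00268), 1.55 for OsNAC6 (adjusted p = 0.000612) and 0.99 for OsNAC5 (adjusted p = 0.0213, limma) were also called. With normexp these 5 calls were kept, but the relative values were smaller, at 1.41 for ONAC131, 0.66 for OsNAC10 and 0.57 for OsNAC5. OsNAC5 lost this call without OsNAM Event 2 well watered replicate 1 (adjusted p = 0.0781) and after the shift to the 75th percentile (adjusted p = 0.0544, limma). Its own change, 0.17, was not called.

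The relative changes of OsNAC3, OsNAC4 and SNAC3 were not called. Their relative changes were -0.03 for OsNAC3 (95% interval -0.79 to 0.72, adjusted p = 0.942), 0.29 for OsNAC4 (95% interval -0.56 to 1.15, adjusted p = 0.555) and 0.76 for SNAC3 (95% interval 0.09 to 1.42, adjusted p = 0.0590, limma). The value for SNAC3 passed the threshold without IR64 drought replicate 1 or 2 or without Vandana drought replicate 2 or 3, with adjusted p between 0.0307 and 0.0460, and also with normexp (0.46, adjusted p = 0.0255, limma). Within IR64 alone, 3 genes were called against OsNAM12.1 (SNAC1 at 3.65, ONAC131 at 3.66 and OsNAC6 at 2.56), where 7.54% of all probes were called. These values share the change of OsNAM12.1 in IR64, which includes drought replicate 3 at 4.88. ONAC131 also includes a well-watered value of 1.14 that was not well above background. The own changes of OsNAC6 and ONAC131 in IR64 were not called (adjusted p = 0.0611 and 0.135, limma). In OsNAM Event 2, 481-B and Vandana 0 of the 8 genes were called (2.61%, 0.233% and 0.367% of all probes), with unadjusted p below 0.05 for 5, 1 and 3 genes (limma).

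**Figure D3:**
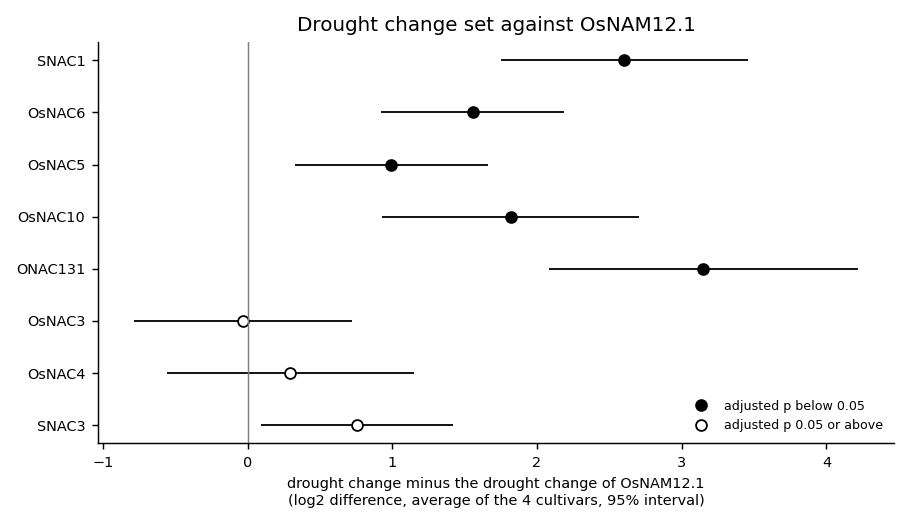
Drought change of 8 NAC genes minus that of OsNAM12.1 on the same arrays (horizontal axis, log2, average of the 4 cultivars), with 95% intervals. Filled points have an adjusted p below 0.05. SNAC1, OsNAC6, OsNAC5, OsNAC10 and ONAC131 lie right of 0, and the interval of OsNAC3 (-0.79 to 0.72) spans it.

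By group means, OsNAM12.1 was highest in OsNAM Event 2 well watered (7.77 ± 0.30, SD, n = 2), followed by Vandana (7.59 ± 0.39), 481-B (7.49 ± 0.30) and IR64 (7.38 ± 0.05), all well watered with n = 3. Below these came 481-B (6.99 ± 0.51), Vandana (6.98 ± 1.02), OsNAM Event 2 (6.83 ± 0.54) and IR64 (6.15 ± 1.12) under drought, with n = 3 each. None of the 7 gaps between neighbours in this order exceeded the larger SD of the pair. SNAC1 was highest in OsNAM Event 2 (11.42 ± 0.09), IR64 (10.94 ± 0.98), 481-B (10.22 ± 0.29) and Vandana (9.88 ± 0.87) under drought. It was lower in OsNAM Event 2 (9.18 ± 0.20, n = 2), 481-B (8.88 ± 0.32), Vandana (8.76 ± 0.44) and IR64 (8.52 ± 0.30) when well watered (SD, n = 3 unless given). Here too 0 of 7 gaps exceeded the larger SD, and the arrays of 1 neighbouring pair, Vandana under drought and OsNAM Event 2 well watered, did not overlap.

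Over the 8 group means, the Pearson correlation with OsNAM12.1 was 0.77 for OsNAC4, 0.76 for OsNAC3 and 0.14 for SNAC3. It was -0.47 for OsNAC5, -0.65 for OsNAC6, -0.67 for OsNAC10, -0.70 for ONAC131 and -0.82 for SNAC1. ONAC131 and OsNAC10 correlated at 0.91 with each other and SNAC1 with OsNAC10 at 0.91, while OsNAC3 and ONAC131 correlated at -0.92. These are descriptions over 8 points that share arrays, normalization and the contrast of drought and well watered. Among 29186 other probes (those well above background throughout at least 1 group), the 5 loci most like OsNAM12.1 by this measure were LOC_Os07g39880 (r = 0.994), LOC_Os06g06250 (0.987), LOC_Os04g15840 (0.986), LOC_Os04g35680 (0.983) and LOC_Os10g33954 (0.98). Their averaged drought changes, between -1.51 and -0.83, are a description, because the choice by likeness used the same group means. OsNAC4 ranked at 4236 and OsNAC3 at 4412 in this order.

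Of 24 further loci listed as NAC genes, 12 were called in the averaged comparison and all 12 were higher under drought, against 14.2% of all probes called higher. The median change of the 24 loci was 0.67, against -0.06 over all probes. This list was chosen with earlier results of these data known, so that these counts are a description and not a test of the family. No table used here pairs these locus identifiers with gene names, apart from LOC_Os08g33670, annotated as a no apical meristem protein. Its averaged change was 1.05 (adjusted p = 0.0475, limma), but it was well above background on 16 of 23 arrays. The mean of LOC_Os08g33670 was higher under drought in 3 cultivars and lower in 1. Its treatments were apart in OsNAM Event 2 alone, where 47.7% of all probes had no overlap. Some of the 24 loci were not detected. LOC_Os11g31330, LOC_Os11g31340 and LOC_Os11g31380 were well above background on 0 arrays, so that no change could be measured in them. LOC_Os01g01470, which was called, was well above background on 6 arrays, so that the size of its rise is uncertain. Detection was partial for other called loci too, among them LOC_Os01g29840 (11 arrays) and LOC_Os03g02800 (19 arrays), and their sizes are uncertain as well. The largest rises were those of LOC_Os03g21060, LOC_Os05g34830 and LOC_Os08g10080.

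LOC_Os03g21060 ran between 6.64 and 8.65 on the drought arrays (log2, median 7.60), against 4.95 and 6.26 on the well-watered arrays (median 6.02). Its treatments did not overlap, and it rose by 1.81 (standard error 0.24, adjusted p = 3.88e-05, limma). LOC_Os05g34830 ran between 4.84 and 6.80 on the drought arrays (median 5.93), against 1.27 and 4.92 on the well-watered arrays (median 4.29), and rose by 1.80 (adjusted p = 0.000702, limma). LOC_Os08g10080 ran between 5.76 and 6.88 on the drought arrays (median 6.42), against 3.40 and 5.78 on the well-watered arrays (median 4.92), and rose by 1.69 (adjusted p = 4.34e-05, limma). For both of these the treatments did not overlap within any of the 4 cultivars but did across them. LOC_Os05g34830 was well above background on 20 arrays and LOC_Os08g10080 on 21. For LOC_Os05g34830 the undetected arrays were well watered, so that its rise rests in part on values that only bound the level. Among the 12 loci not called the changes ran between -0.41 and 0.58. These 12 include LOC_Os11g31330, LOC_Os11g31340 and LOC_Os11g31380, for which a missing call does not show an unchanged level.

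Of 6 loci listed as reported targets of SNAC1, OsNAC5 or OsNAC6, 5 were called, 3 higher and 2 lower under drought, against 26.5% of all probes called (14.2% higher and 12.3% lower). This list too was chosen with earlier results of these data known, so that the count is a description. LOC_Os05g46480, annotated as a group 3 late embryogenesis abundant protein, a kind of protein that protects drying cells, is listed for OsNAC5. It ran between 12.099 and 15.17 on the drought arrays (log2, median 13.45), against 6.77 and 8.58 on the well-watered arrays (median 7.63). With no overlap it rose by 5.86 (standard error 0.29, adjusted p = 4.86e-10, limma), or 58.0-fold. Of 3 loci listed for SNAC1, LOC_Os02g32520 rose by 1.82 (adjusted p = 3.17e-06) and LOC_Os03g12820 by 1.74 (adjusted p = 4.47e-05, limma). LOC_Os02g05630, the third, changed by 0.32 (95% interval 0.02 to 0.62, adjusted p = 0.115, limma).

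The 2 loci listed for OsNAC6 went the other way. LOC_Os03g19427 and LOC_Os03g19420 were listed as OsNAS1 and OsNAS2, genes of nicotianamine synthase, whose product binds iron and zinc for transport. The RefSeq table used here holds both symbols on chromosome 3 but does not pair them with these locus identifiers. LOC_Os03g19427 ran between 5.77 and 10.59 on the drought arrays (log2, median 8.63), against 11.58 and 14.72 on the well-watered arrays (median 13.14). It fell by 4.59 (standard error 0.50, adjusted p = 5.54e-06, limma), or 24.0-fold. LOC_Os03g19420 fell by 3.24 (adjusted p = 5.19e-05, limma), and neither locus had overlapping treatments. OsNAC6 itself was higher in the same comparison, by 0.73. The 2 loci are similar neighbours, and whether their probes cross-hybridise is not known.

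**Figure D4:**
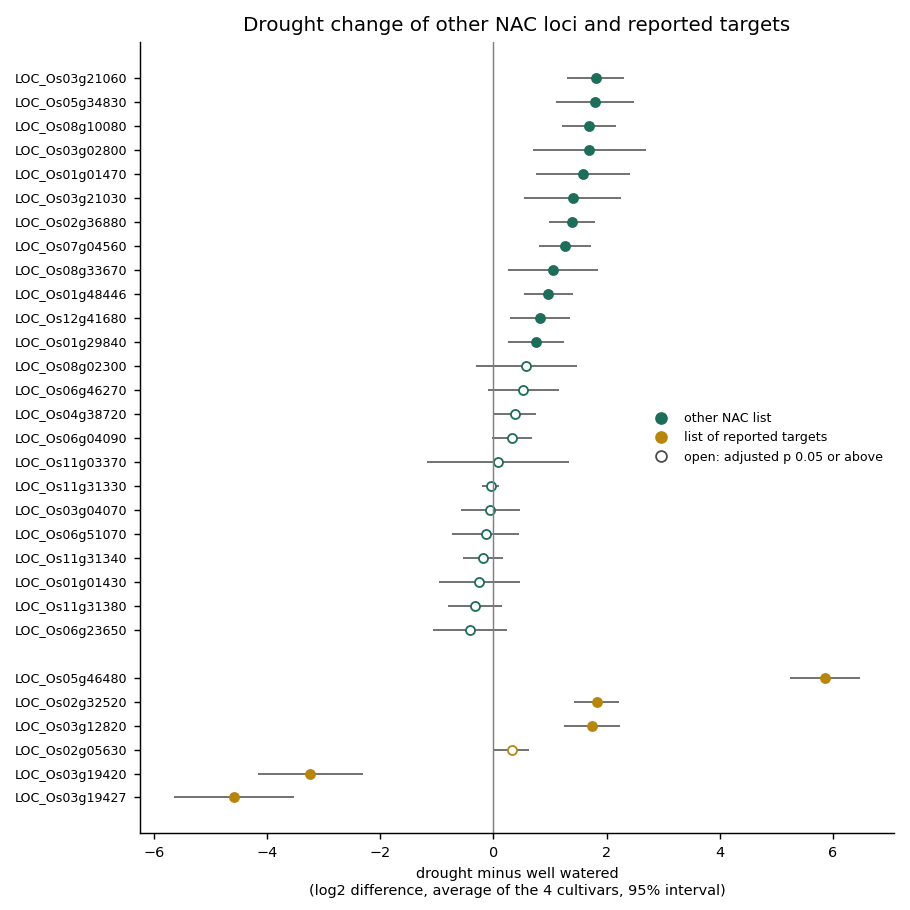
Drought minus well watered on the log2 scale (horizontal axis, average of the 4 cultivars, 95% intervals) for 24 loci of the other NAC list and 6 loci listed as reported targets. Filled points have an adjusted p below 0.05. The 12 called NAC loci lie right of 0, and LOC_Os05g46480 (5.86) and LOC_Os03g19427 (-4.59) are the extremes of the targets.

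The root markers were also called in the averaged comparison, though not in 1 direction, as were 26.5% of all probes. LOC_Os02g44310 was lower by 2.18 (adjusted p = 0.000971), Lsi1 higher by 0.75 (adjusted p = 0.0448) and Lsi2 higher by 1.27 (adjusted p = 0.0147, limma). None of the 5 green tissue markers was called, with averaged changes between -0.43 and 1.4. Their pooled SD within groups ran between 1.98 and 3.26 (log2), so that a missing call does not show equal levels. In IR64 every listed locus of the Rubisco small subunit had no overlap of treatments, as was so for 18.8% of all probes. The loci of chlorophyll-binding proteins overlapped in every cultivar. In whole roots a change of signal in each cell and a change in the share of cell types cannot be told apart, and the part of these markers in the changes of the NAC genes was not tested.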

How the data were processed

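Signals of 23 root arrays in 8 groups were analysed, with groups and replicate numbers from the labels. The authors deposited for each array the output of Agilent Feature Extraction (version 11.0 in the submitters' processing notes, 11.5.1.1 in the file headers), whose processed signal is a background-subtracted intensity on a linear scale, not normalized between arrays. A further table the authors deposited holds log2 values, which correlated at 0.99998 with values computed here by quantile normalization and centring of each probe. Control spots and spots marked as outliers (0 to 31 per array) were left out, 0 spots were saturated, spots of a probe were averaged, and log2 values were quantile normalized. A single limma fit (limma 3.58.1, R 4.3.3) gave each group a mean, with Benjamini-Hochberg adjustment over up to 52901 probes and calls below 0.05. All tests were two-sided. The methods name quantile normalization and a rule of over 2-fold with Bonferroni, but no test. Files were read with python 3.11.15, pandas 2.3.3 and numpy 2.4.6.

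The members and lists were chosen with earlier results of these data known. The text names all 9 genes, the 3 largest rises and falls among called loci of the other NAC list (no called locus fell), all 6 listed targets and the 5 loci most like OsNAM12.1. The fit was tested on simulated data. Alternatives were a shift to the 75th percentile, normexp with an offset of 50, dim probes left out, a block for slide or for replicate number, the authors' table in place of scanner signals, the arrays compared alone, the methods' rule, and each array left out.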

Additional observations from a re-analysis of the deposited data

How the results depend on the processing

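All 32 results were recomputed under each setting except the fit with only the arrays compared, which gave 12 of them. On the deposited log2 values and with the replicate number as a block, all 32 were kept. For the test of 1 gene this means the same direction and side of the threshold. For a count of called genes it means an equal or similar count. The deposited values match those used here up to the centring of each probe (correlation 0.99998), which leaves changes as they are. Agreement on them was therefore fixed in advance. Leaving out dim probes likewise does not alter the change of a gene, only its test. The numbers do not pair the arrays: over 11 pairs of same-numbered arrays the deviations from the group means correlated between -0.399 and 0.415, with 3 above 0.1, and with the replicate block 6 of 9 genes were called in the averaged comparison and OsNAM12.1 changed by -0.83. With drought in IR64, 1 gene was called, and the count was 2 with dim probes left out (SNAC1 and OsNAC6) and 0 with only the arrays compared or with the methods' rule. In OsNAM Event 2 the count of 1 became 2 (SNAC1 and ONAC131) after the shift to the 75th percentile, with normexp and with dim probes left out, and 0 with the methods' rule. In Vandana it became 1 (ONAC131) with normexp. Between the IR64 pair and the Vandana pair under drought it became 1 (SNAC1) with normexp, with dim probes left out and with slide as a block. The methods' rule called 1 gene in the averaged comparison, leaving OsNAM12.1 (-0.82, Bonferroni-adjusted p = 1 from limma) uncalled, and 0 genes against OsNAM12.1. SNAC3, at -0.07, turned to 0.029 after the shift to the 75th percentile.

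With each of 23 arrays left out in turn, the count of called genes lay between 1 and 2 in IR64, 0 and 2 in OsNAM Event 2, 0 and 1 in Vandana, 4 and 7 in the averaged comparison, and 0 and 1 between the pairs under drought, and between 4 and 6 genes were called against OsNAM12.1. The count in OsNAM Event 2 was 0 without its well watered replicate 1. OsNAC6 joined in IR64 without IR64 drought replicate 2, OsNAM Event 2 drought replicate 1 or Vandana well watered replicate 3. ONAC131 joined in OsNAM Event 2 without IR64 well watered replicate 3 or OsNAM Event 2 well watered replicate 3, and in Vandana without Vandana well watered replicate 1. Leaving out either OsNAM Event 2 well watered array leaves 1 in that group, which is then assumed to vary like the other groups, and without replicate 3 the remaining ONAC131 value was not well above background. The change of OsNAM12.1 lay between -0.93 and -0.67. The averaged call of OsNAC10 was lost without IR64 drought replicate 3 or well watered replicate 2, 481-B drought replicate 2 or 3 or well watered replicate 1 or 2, OsNAM Event 2 drought replicate 1 or well watered replicate 1, Vandana drought replicate 1 or 2, or Vandana well watered replicate 2. The change of OsNAC3 against OsNAM12.1, at -0.03, lay between -0.25 and 0.13. The cause of these shifts was not tested. Each listed locus had 1 probe, so that another choice of probe could not be tried.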
